A study of Mus musculus with 8 samples.

Results

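The genes described here encode the nuclear subunits of the mitochondrial respiratory chain and of ATP synthase, complexes I to V. They were taken by symbol, as every gene of the probe annotation whose symbol begins with Ndufa, Ndufb, Ndufc, Ndufs, Ndufv, Sdha, Sdhb, Sdhc, Sdhd, Uqcr, Cox4, Cox5, Cox6, Cox7, Cox8 or Atp5. This gave 89 of the 16593 genes with a symbol, on 111 probes. Complex I had 35 genes, complex II 3, complex III 8, complex IV 17 and complex V 16. A further 10 genes carry such a symbol without being counted as subunits here: the assembly factors Ndufaf1, Ndufaf3, Ndufaf4, Ndufaf5, Ndufaf7 and Sdhaf1 to Sdhaf4, and Cox7a2l, a supercomplex factor related to Cox7a. Each gene was read from its probe with the highest mean. In all, 83 of the 89 genes passed a filter at the median of all probe means (log2 intensity 6.95), as did 8945 genes of the whole array. Ndufs1, Uqcrq, Cox4i2, Cox6b2, Cox7b2 and Cox8c did not pass, with log2 intensities between 6.77 and 6.94 on every array. Ndufa4 was counted in complex I by its symbol, although its product is known as a subunit of complex IV. The probe annotated Ndufs5-ps carries the name of a pseudogene of Ndufs5, and its signal and that of the parent gene cannot be told apart here.

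The respiratory chain carries electrons from NADH (complex I) and succinate (complex II) through coenzyme Q to complex III, and from there through cytochrome c to oxygen at complex IV. Complexes I, III and IV pump protons across the inner mitochondrial membrane, and complex V (ATP synthase) uses their return to make ATP. The liver relies on this chain to oxidise fatty acids during fasting and to pay for glucose synthesis. Several complex IV subunits exist as a heart and skeletal muscle isoform and a liver or ubiquitous isoform, encoded by separate genes.

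Liver total RNA of female C57/BL6 mice was taken after a fast of 6 hours and hybridised to Illumina bead arrays. Diet (21% or 5% corn oil by weight), age (day 456, D456, or day 90, D90) and generation (F3 or F1) were crossed, with 1 array in each cell of that design. The 8 arrays are named by those levels: F3 21% D456, F1 21% D456, F3 21% D90, F1 21% D90, F3 5% D456, F1 5% D456, F3 5% D90 and F1 5% D90. The labels leave unstated whether an array represents 1 mouse or pooled mice, who was fed the diets, and during which period of life or in which generation. A factor's levels thus hold 4 arrays each, without replicates of any cell. The p-values describe the spread between arrays, which may be technical in part, and not between mice. With 1 array per cell, that spread includes any difference that itself differs between the levels of another factor. All differences below are log2 differences with a standard error (SE) from 1 additive limma fit over all 8945 genes, n = 4 arrays per level. The deposited intensities still contain background, which makes the differences of dim genes too small.

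Hepatocyte markers read unevenly: on the log2 scale Ttr was at 14.5 to 14.6 and Apoa1 at 14.6 to 14.8 on every array, while the probe of Alb was at 8.09 to 9.04. Of the 18 hepatocyte markers above the filter, 14 were lower with 21% (3 at an unadjusted p under 0.05) and 15 were lower at D456 (4 at an unadjusted p under 0.05), with medians of -0.05 for both factors. Mean intensity was 457 on every array. Markers of other tissues were also high in part of the series. The median log2 intensity of 25 pancreas markers was 10.17 in F3 5% D456, 9.36 in F1 5% D456 and 8.46 in F3 5% D90, and it was between 6.87 and 6.92 in the other 5 arrays. All 3 of those arrays are 5% arrays, so pancreas RNA and the 5% diet partly coincide in these data. F1 5% D90 was the least similar array, correlating with the others at 0.982 on average, where each of those averaged 0.989 to 0.993.

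None of the 83 genes passed an adjusted p of 0.05 for diet, age or generation in the additive fit (limma, Benjamini-Hochberg over all genes). Across the whole array 0 genes (0%) were called for diet, 9 genes (0.101%) for age and 0 genes (0%) for generation. The smallest adjusted p among the 83 genes was 1.0 for diet, 0.337 for age and 0.988 for generation (limma). At an unadjusted p under 0.05, 0 of 83 genes were counted for diet (3.22% of all genes), 3 of 83 for age (12.2%) and 1 of 83 for generation (2.14%). In this fit the shares of respiratory chain genes were thus at or below those of the whole array for diet and age. With the pancreas covariate the counts were 16 for diet and 0 for age. The shares of all genes in that covariate fit are not given here, so these 2 counts have no comparison. The genes varied over the 8 arrays by a median range of 0.34 on the log2 scale, against 0.32 for all genes. That range was smallest for Atp5k (0.06) and largest for Atp5pb (2.28), which encode small subunits of the ATP synthase membrane part and stalk.

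The 5 complexes had small median differences under the diet. For 21% minus 5% corn oil the median was -0.02 in complex I (14 genes higher, 20 lower), -0.03 in complex II (1 higher, 2 lower), -0.02 in complex III (3 higher, 4 lower), -0.06 in complex IV (0 higher, 13 lower) and 0.01 in complex V (9 higher, 7 lower). Across all genes the median was 0.00, with 4739 genes higher and 4206 lower (47.0%). Complex IV was the only complex whose genes all had the same sign (12 of 13 lower after quantile normalization or 75th percentile scaling, which turned genes near 0). This holds with Ndufa4 counted in complex I by its symbol. Ndufa4, whose product is known as a complex IV subunit, was higher with 21% in the fit (-0.03 without F1 5% D90). Of the 10 assembly factors and relatives, 9 were higher and 1 lower, with a median of 0.03, but without the F1 5% D90 array 5 were higher and 5 lower, with a median of -0.01. Same-sign differences in all 4 matched pairs of arrays were found for 12 of 83 genes (10.1% of all genes), 2 higher (5.35%) and 10 lower (4.72%).

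**Figure D1:**
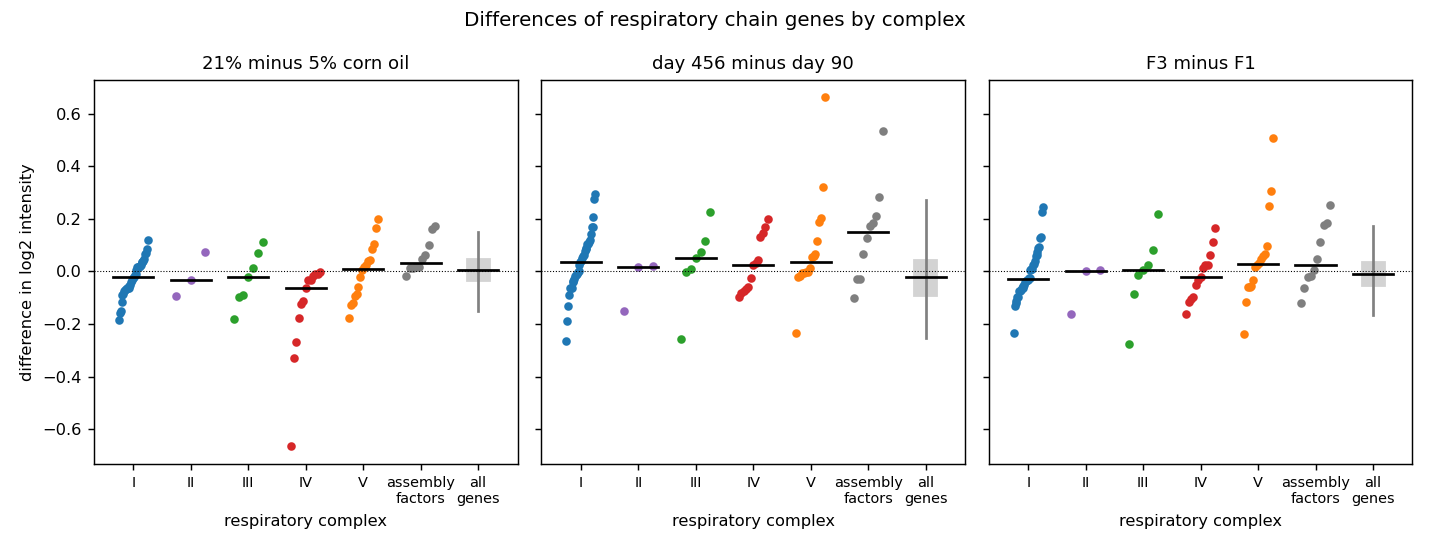
Log2 difference of each of the 83 genes (points, sorted within its complex) for 21% minus 5% corn oil, day 456 minus day 90 and F3 minus F1, with the median of each complex as a black line. The grey box and line show the quartiles and the 5th to 95th percentiles of all 8945 genes. All 13 complex IV genes lie below 0 for diet (12 of 13 after quantile normalization or 75th percentile scaling), and the medians of the complexes lie between -0.06 and 0.05. Ndufa4, known as a complex IV subunit but drawn in complex I by its symbol, lies above 0 for diet.

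Complex IV, cytochrome c oxidase, had a diet difference whose size varied between pairs of arrays. The median over its 13 genes was -0.10 for F3 D456, -0.18 for F1 D456, 0.00 for F3 D90 and -0.02 for F1 D90 (21% minus 5% in each pair). Within those pairs 10, 9, 7 and 7 of the 13 genes were lower, against 43.6%, 40.8%, 47.2% and 61.2% of all genes. Without the 3 muscle isoforms, the other 10 genes were lower in the fit with a median of -0.03, and the 4 pairs had medians of -0.08, -0.20, -0.06 and 0.02, with 7, 8, 7 and 4 of 10 lower. The larger differences were those of the D456 pairs, whose 5% arrays had the highest pancreas markers. Between these pairs the order was the other way: -0.18 in F1 with the markers at 9.36, and -0.10 in F3 with the markers at 10.17. The F1 D90 pair has pancreas markers at 6.88 with 21% and 6.87 with 5%, and its 5% array is the one that stands apart. With the level of the pancreas markers as a covariate, 9 of 13 complex IV genes were lower. Leaving out each array in turn left 10 to 12 of 13 lower, with medians between -0.09 and -0.04. Other cell type markers moved with diet too: 14 of 18 hepatocyte markers were lower with 21% (median -0.05), as were 15 of 15 muscle markers (-0.53), and 10 of 12 macrophage markers were higher (0.09). The part of these cell types and of pancreas RNA in the complex IV difference was not tested. In whole-tissue RNA, fewer hepatocytes and less RNA per hepatocyte cannot be told apart.

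Cox8a, the liver isoform of subunit 8, had log2 intensities of 12.53, 12.58, 12.60 and 12.69 in the 21% arrays (F3 D456, F1 D456, F3 D90, F1 D90), against 12.90, 12.83, 12.77 and 12.61 in the matching 5% arrays. It was lower with 21% in 3 of 4 pairs, and the exception was the F1 D90 pair. The difference was -0.18 ± 0.09 (SE; adjusted p = 1.0, limma). With the pancreas covariate its sign turned, to 0.07. Cox6a1, the liver isoform of subunit 6A, read 12.85, 12.91, 12.87 and 13.17 with 21%, against 13.31, 13.26, 13.06 and 12.65 with 5% in the same order. Its lowest value of all was the F1 5% D90 array, and the difference was -0.12 ± 0.15. Cox4i1, the ubiquitous isoform of subunit 4, was lower in all 4 pairs but by only -0.03 ± 0.06, and Cox7b was lower in all 4 pairs by -0.11 ± 0.09. Cox5a, another subunit with no muscle isoform among these genes, had a difference of 0.00 ± 0.14, and it was -0.18 without the F1 5% D90 array. The remaining ubiquitous subunits Cox5b, Cox6b1, Cox6c, Cox7a2 and Cox7c differed by -0.06, -0.01, -0.02, -0.03 and -0.01.

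The 3 isoforms of heart and skeletal muscle that passed the filter had the largest complex IV differences for diet in the fit of all 8 arrays. Of these, Cox6a2 and Cox8b were high in 2 of the 8 arrays. Cox6a2, the muscle isoform of subunit 6A, read 6.93, 7.06, 7.03 and 6.91 in the 21% arrays (F3 D456, F1 D456, F3 D90, F1 D90), against 8.09, 6.98, 7.0 and 8.51 in the 5% arrays. Cox8b, the muscle isoform of subunit 8, read 7.06, 7.26, 7.29 and 7.16 with 21%, against 7.87, 7.09, 7.02 and 8.11 with 5%. In both genes F1 5% D90 was highest, F3 5% D456 was next, and the other 6 arrays lay together near the filter. The differences for diet were -0.66 ± 0.33 for Cox6a2 and -0.33 ± 0.24 for Cox8b, each with an adjusted p of 1.0 (limma), and each was lower in only 2 of 4 pairs. Without the F1 5% D90 array they were -0.28 and -0.08, against -0.29 for Cox6a1 and -0.25 for Cox8a.

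Skeletal muscle markers had the same pair of arrays on top. Acta1, skeletal muscle actin, read 9.69 in F1 5% D90 and 9.37 in F3 5% D456, and Myl1, a fast muscle myosin light chain, read 9.80 and 9.0 in those arrays. Neither exceeded 7.60 in any other array. The summed intensity of the 21 muscle markers on the array was 5946 in F1 5% D90 and 4651 in F3 5% D456, against 2602 to 2893 elsewhere. Of all 21 muscle markers, with no filter, 15 had these as their 2 highest arrays (3.12% of all 16593 genes), as did 2 of the 83 respiratory chain genes (Cox6a2 and Cox8b; 2.33% of the 8945 genes above the filter). The heart markers Myh6, Myh7 and Tnni3 lay between 6.77 and 6.90 on every array, but so did the skeletal myosin Myh4 (6.78 to 6.85). Tnnc1, of heart and slow muscle, read 7.35 in F1 5% D90 and 7.23 in F3 5% D456, and Ucp1, which marks brown fat, read 6.94 and 7.02 in those arrays, each above its other 6. The part of muscle RNA in the levels of Cox6a2 and Cox8b was not tested. The third muscle isoform, Cox7a1, was highest in F1 5% D456, with F1 5% D90 and F3 5% D456 next. It read 8.50, 8.32, 8.41 and 8.06 with 21%, against 8.64, 8.77, 8.31 and 8.66 with 5% in the same order. Its diet difference was -0.27 ± 0.12 (adjusted p = 1.0, limma), lower in 3 of 4 pairs. Its age difference was 0.20 ± 0.12, higher at D456 in 4 of 4 pairs.

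**Figure D2:**
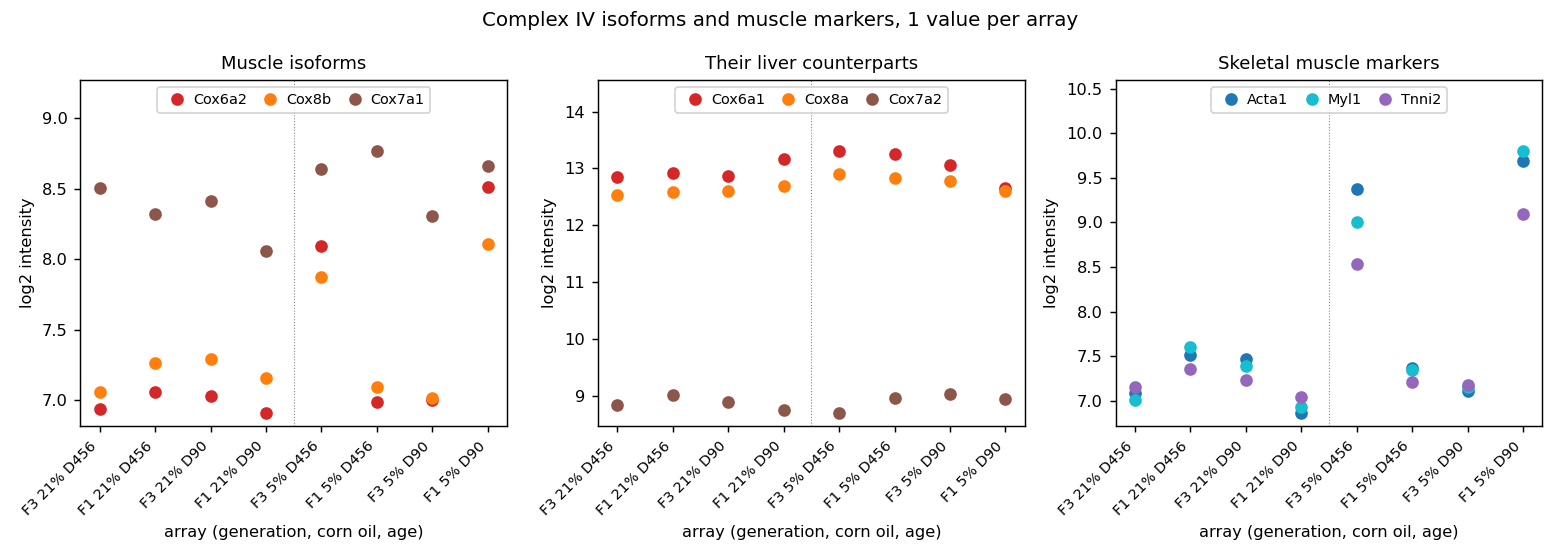
Log2 intensity on each of the 8 arrays (21% corn oil left of the dotted line, 5% right) of the muscle isoforms Cox6a2, Cox8b and Cox7a1, of their liver counterparts Cox6a1, Cox8a and Cox7a2, and of the skeletal muscle markers Acta1, Myl1 and Tnni2. Cox6a2 and Cox8b have F1 5% D90 and F3 5% D456 as their highest arrays, as have the markers. Cox6a1 and Cox8a are also highest in F3 5% D456 (13.31 and 12.90), and not in F1 5% D90.

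The start regions of these paired isoforms differ in sequence, and they are shown because 1 liver gene and 1 muscle gene encode each subunit. Each holds 300 bases around the gene's start, 50 of them after it, 5′ to 3′ on the gene's strand, from RefSeq on GRCm38.p6. Capitals mark the motif named for each gene, found on either strand. E-boxes are marked only in Cox8b, although 72.1% of all protein-coding regions hold the motif. Cox8a also holds 1 E-box, left in lower case, and Cox6a1 holds 0.
Cox8b (muscle isoform; chr7:140900397-140900696, minus strand; capitals mark 2 E-boxes, CANNTG, a motif of muscle regulators of the MyoD family): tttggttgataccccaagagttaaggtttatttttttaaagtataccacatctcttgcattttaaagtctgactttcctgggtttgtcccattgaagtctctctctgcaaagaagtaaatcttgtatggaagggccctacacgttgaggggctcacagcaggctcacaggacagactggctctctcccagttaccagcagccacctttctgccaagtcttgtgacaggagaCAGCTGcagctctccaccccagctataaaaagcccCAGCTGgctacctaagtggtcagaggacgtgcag
Cox8a (liver isoform; chr19:7217567-7217866, minus strand; capitals mark 2 ETS motifs, CCGGAAG, read here on the opposite strand): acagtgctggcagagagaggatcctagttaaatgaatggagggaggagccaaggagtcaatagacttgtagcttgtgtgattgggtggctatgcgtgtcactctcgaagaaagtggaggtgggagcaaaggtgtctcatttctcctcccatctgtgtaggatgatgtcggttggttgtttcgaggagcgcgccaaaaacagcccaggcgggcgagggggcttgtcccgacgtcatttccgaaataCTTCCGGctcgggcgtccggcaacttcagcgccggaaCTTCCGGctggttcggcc
Cox6a1 (liver isoform; chr5:115348909-115349208, minus strand; capitals mark 2 motifs of nuclear respiratory factor 1, NRF1, CGCNTGCG, and 1 ETS motif): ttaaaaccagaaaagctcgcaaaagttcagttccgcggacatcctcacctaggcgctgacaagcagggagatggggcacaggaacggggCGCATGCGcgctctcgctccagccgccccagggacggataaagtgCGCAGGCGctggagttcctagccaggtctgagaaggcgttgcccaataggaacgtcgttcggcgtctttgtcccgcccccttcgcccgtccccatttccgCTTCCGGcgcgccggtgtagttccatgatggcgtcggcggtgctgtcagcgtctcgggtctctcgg

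A start region was on hand for 74 of the 89 genes and for 17492 protein-coding genes, and not for Cox6a2. The NRF1 motif CGCNTGCG, known for respiratory chain genes, was in 35.1% of the 74 regions, against 12.5% of all regions. Per complex it was in 8 of 31 regions of complex I, 1 of 2 of complex II, 3 of 5 of complex III, 1 of 12 of complex IV (Cox6a1) and 9 of 14 of complex V. The ETS motif CCGGAAG was in 27.0% against 12.9%, and the YY1 motif AANATGGCG in 14.9% against 3.64%. The E-box CANNTG was in 71.6% against 72.1%. Both strands were searched and a match counted whether or not it overlapped another motif. These shares describe letters in the regions and were not set against the expression differences.

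Complex I, which takes electrons from NADH, had small differences that went both ways. Its 5 core subunits above the filter (Ndufs3, Ndufs7, Ndufs8, Ndufv1 and Ndufv2, which hold the flavin and the iron-sulfur clusters or build their chain) had diet differences between -0.01 and 0.04 and age differences between -0.04 and 0.11. Without F1 5% D90 the diet differences ran from -0.10 (Ndufs3) to 0.11 (Ndufv2). The age differences then ran from -0.06 (Ndufv1) to 0.08 (Ndufs8). The accessory subunit Ndufa8 was lower with 21% in 4 of 4 pairs. It read 11.98, 11.99, 11.86 and 11.97 in the 21% arrays (F3 D456, F1 D456, F3 D90, F1 D90), against 12.18, 12.19, 11.95 and 12.22 in the 5% arrays. The groups overlapped through F3 5% D90, and the difference was -0.18 ± 0.08 (adjusted p = 1.0, limma). Ndufb5 read 8.80, 8.98, 8.95 and 8.92 with 21%, against 9.05, 9.08, 9.02 and 9.13 with 5%, which is no overlap between the groups (-0.16 ± 0.08, adjusted p = 1.0, limma). Non-overlapping diet groups were found for 2 of 83 genes, Ndufb5 and Atp5h, against 1.84% of all genes. Ndufa10 and Ndufb9 were also lower in 4 of 4 pairs, by -0.12 ± 0.10 (-0.04 without F1 5% D90) and -0.15 ± 0.09.

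For age, the complex I gene with the smallest p was Ndufa13, an accessory subunit also known as GRIM-19. It read 13.37, 13.40, 13.40 and 13.40 in the D456 arrays (F3 21%, F1 21%, F3 5%, F1 5%), against 13.52, 13.51, 13.61 and 13.68 in the D90 arrays. Every D456 array lay below every D90 array, and the difference was -0.19 ± 0.06 (adjusted p = 0.337, limma). Non-overlapping age groups were found for 3 of 83 genes (Ndufa13 lower, Sdhaf1 and Ndufaf4 higher), against 8.11% of all genes, and for generation there were 0 of 83 (1.14%). Ndufb10, an accessory subunit, had an age difference of -0.26 ± 0.13 and a generation difference of -0.23 ± 0.13. Ndufc2 (0.29 ± 0.21), Ndufs4 (0.27 ± 0.15) and Ndufa12 (0.21 ± 0.14) had the largest age differences above 0 in complex I. All 3 rested on a low F1 5% D90 array and were 0.03, 0.09 and 0.09 without it. For generation, Ndufb8 and Ndufa8 were lower in F3 in 4 of 4 pairs by -0.08 ± 0.07 and -0.10 ± 0.08, and Ndufa4 was higher in 4 of 4 pairs by 0.13 ± 0.09. Without F1 5% D90 these were -0.03, -0.06 and 0.04. The other Ndufa8 probe above the filter had a generation difference of 0.006.

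Complex II, succinate dehydrogenase, was read through Sdhb, its iron-sulfur subunit, and through Sdhc and Sdhd, its membrane anchors. Sdhb differed by -0.03 ± 0.10 for diet, 0.02 ± 0.10 for age and 0.00 ± 0.10 for generation. Sdhc had 0.07 ± 0.08, 0.02 ± 0.08 and 0.00 ± 0.08 for the same factors. Sdhd had -0.09 ± 0.14, -0.15 ± 0.14 and -0.16 ± 0.14. None of the 3 genes had an unadjusted p under 0.05 for any factor, so no difference beyond the spread between arrays was detectable in this complex.

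Complex III, cytochrome bc1, passes electrons on to cytochrome c. Its core subunit Uqcrc1 had the smallest generation p of the 83 genes and was also lower at D456. It read 11.40, 11.60, 11.59 and 11.69 in the F3 arrays (21% D456, 21% D90, 5% D456, 5% D90), against 11.74, 11.91, 11.59 and 12.14 in the F1 arrays. F3 was lower in every pair, by 0.00 at the least in the 5% D456 pair, and F1 5% D90 was the highest array. The difference was -0.28 ± 0.10 for generation (adjusted p = 0.988, limma) and -0.26 ± 0.10 for age (adjusted p = 0.361, limma), lower in 4 of 4 pairs for both. Without F1 5% D90 these were -0.21 (adjusted p = 1.0) and -0.20 (adjusted p = 0.549) by limma. The start region of Uqcrc1 is printed because it holds 2 NRF1 motifs (CGCNTGCG, in capitals) in the same window, from RefSeq on GRCm38.p6. It also holds 5 E-boxes, left in lower case.
Uqcrc1 (chr9:108936398-108936697, plus strand): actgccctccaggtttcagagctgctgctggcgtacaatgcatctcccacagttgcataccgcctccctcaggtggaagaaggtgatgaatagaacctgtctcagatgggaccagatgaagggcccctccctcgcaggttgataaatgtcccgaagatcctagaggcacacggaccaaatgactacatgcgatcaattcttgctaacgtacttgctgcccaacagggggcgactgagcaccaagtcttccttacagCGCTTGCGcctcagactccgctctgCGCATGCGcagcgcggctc

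Uqcrc2, the other core subunit, did not share this pattern, with 0.12 ± 0.09 for age and 0.08 ± 0.09 for generation. Uqcrh, the hinge protein, had 0.23 ± 0.11 for age (adjusted p = 0.444, limma), higher at D456 in 4 of 4 pairs, and 0.22 ± 0.11 for generation, and these were 0.11 and 0.10 without F1 5% D90. The Rieske protein gene Uqcrfs1 was dim on its probe (6.96 to 7.02), so its differences of 0.02 or less in size could not show a change. Uqcr11, a small subunit, was lower with 21% in 4 of 4 pairs by -0.10 ± 0.06.

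Uqcrb, which encodes the subunit known as the ubiquinone-binding protein, had opposite age differences in F3 and F1. It read 10.62 and 10.80 in F3 D456 (21% and 5%), against 11.15 and 11.26 in F3 D90, and 11.31 and 11.23 in F1 D456, against 10.42 and 10.94 in F1 D90. D456 was below D90 in both F3 pairs and above it in both F1 pairs. The age by generation interaction, coded as 0.5 times the F3 age difference minus the F1 one, was -0.54 ± 0.11 (adjusted p = 0.996, limma).

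Complex V, ATP synthase, had a median diet difference of 0.01 and a median age difference of 0.04. Atp5b, the catalytic beta subunit, read 14.29, 14.23, 14.30 and 14.22 in the 21% arrays (F3 D456, F1 D456, F3 D90, F1 D90), against 14.16, 14.16, 14.22 and 14.10 in the 5% arrays. It was higher with 21% in 4 of 4 pairs by 0.10 ± 0.06 (adjusted p = 1.0, limma), and the groups overlapped. Atp5h, a stalk subunit, read 11.08, 11.30, 11.19 and 11.30 with 21%, against 11.36, 11.46, 11.35 and 11.39 with 5%, so the groups did not overlap. Its difference was -0.18 ± 0.08 (adjusted p = 1.0, limma). Atp5a1, the alpha subunit that partners Atp5b in the catalytic head, had -0.12 ± 0.17 for diet, -0.23 ± 0.17 for age and -0.24 ± 0.17 for generation. The signs of Atp5a1 and Atp5b differed for diet and for generation, but Atp5a1 was 0.06 for diet without F1 21% D90 and -0.05 for generation without F1 21% D456.

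The largest differences of complex V came from the F1 5% D90 array. Atp5pb, subunit b of the stator stalk, read 11.37, 10.91, 11.19 and 11.30 with 21% (F3 D456, F1 D456, F3 D90, F1 D90), against 11.73, 11.74, 11.15 and 9.47 with 5%. Only F1 5% D90 was below 10.91. The age difference of 0.66 ± 0.37 and the generation difference of 0.51 ± 0.37 were 0.18 and 0.02 without that array, and the diet difference of 0.17 ± 0.37 was -0.32 without it. Atp5l, a subunit of the membrane part, read 10.97 in that array and 11.72 to 12.10 in the others. Its age difference of 0.32 ± 0.17 was 0.12 without it.

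**Figure D3:**
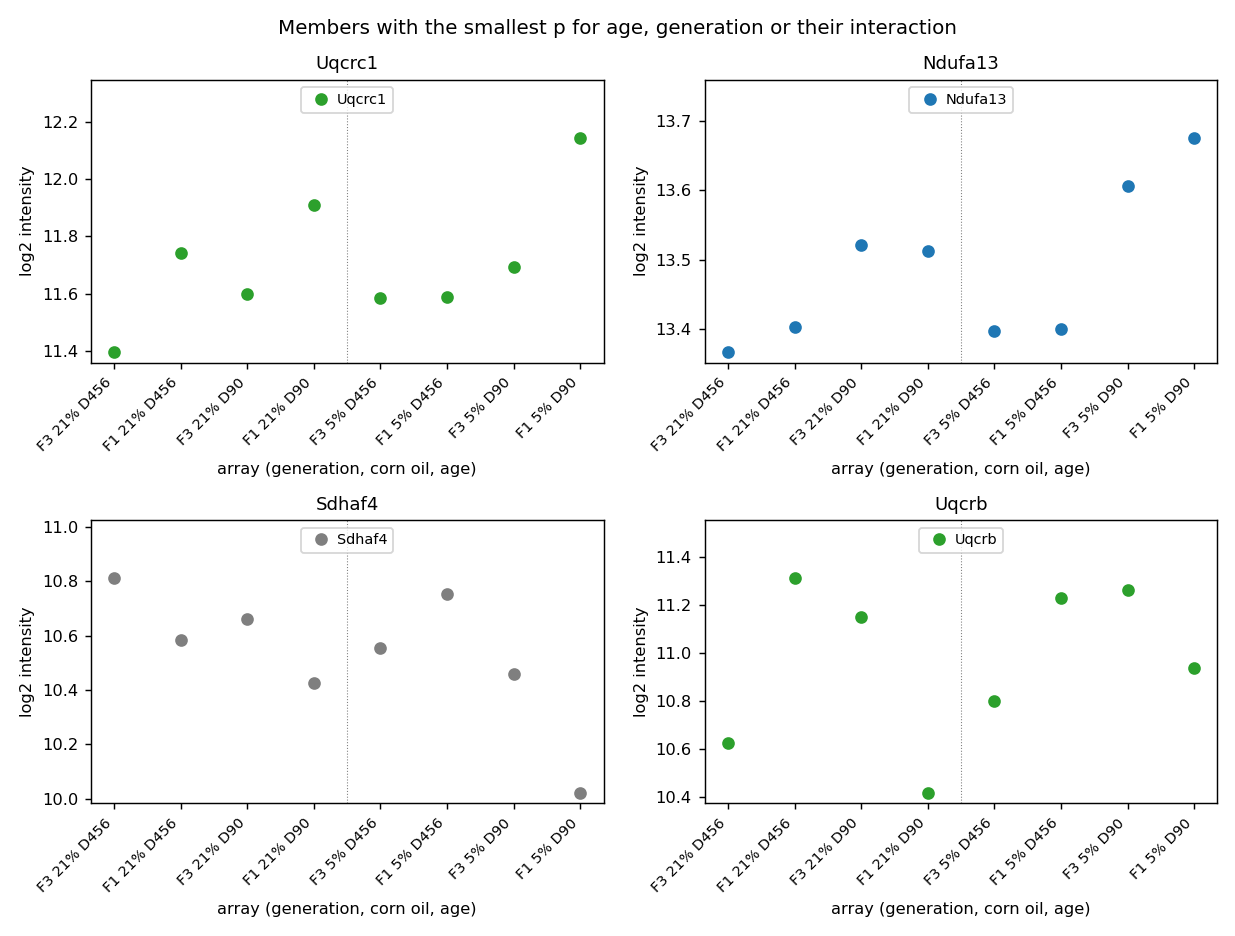
Log2 intensity on each of the 8 arrays (21% corn oil left of the dotted line, 5% right) of Uqcrc1, Ndufa13, Sdhaf4 and Uqcrb, 1 point per array and no replicates. The 4 D456 points of Ndufa13 lie below its 4 D90 points, and Uqcrb is lowest at 10.42 in F1 21% D90 and highest at 11.31 in F1 21% D456.

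The assembly factors and Cox7a2l had a median age difference of 0.15, with 7 of 10 higher at D456, against -0.02 for all genes, and the median was 0.07 without F1 5% D90 (9 of 10 higher). Sdhaf4, a chaperone of the flavin subunit of complex II, read 10.81, 10.58, 10.56 and 10.75 in the D456 arrays (F3 21%, F1 21%, F3 5%, F1 5%), against 10.66, 10.43, 10.46 and 10.02 in the D90 arrays. It was higher at D456 in 4 of 4 pairs, with F1 5% D90 the lowest array, and the difference was 0.28 ± 0.12 (adjusted p = 0.405, limma). Without that array it was 0.18 (adjusted p = 0.652, limma). Cox7a2l had an age difference of 0.53 ± 0.30 that was 0.17 without that array.

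The median age differences of the complexes were 0.04 in complex I (20 higher, 14 lower), 0.02 in complex II (2 higher, 1 lower), 0.05 in complex III (5 higher, 2 lower), 0.02 in complex IV (7 higher, 6 lower) and 0.04 in complex V (9 higher, 7 lower). The lowest of these medians under the 20 alternatives were -0.009, -0.07, 0.003, -0.004 and -0.03 in complexes I to V. Of all 83 genes 50 were higher at D456, against 3636 of 8945 on the array. Pancreas markers were higher at D456 (25 of 25, median 1.02) and in F3 (25 of 25, median 0.62). At D456, 9 of 12 macrophage and 5 of 5 red blood cell markers were also higher, and 12 of 15 muscle markers lower. The part of these tissues and cells in the age and generation differences was not tested. Same-sign age differences in 4 of 4 pairs were found for 9 of 83 genes (19.4% of all genes), 6 higher (7.61%) and 3 lower (11.8%). For generation the medians were -0.03, 0.00, 0.01, -0.02 and 0.03 in complexes I to V, and the sign agreed in 4 of 4 pairs for 11 of 83 genes (10.1% of all genes), 3 higher (4.59%) and 8 lower (5.52%). Cox7c and Cox6c, small subunits of complex IV, lay on opposite sides: Cox7c was higher in F3 in 4 of 4 pairs by 0.16 ± 0.09 and Cox6c lower in 4 of 4 pairs by -0.16 ± 0.09. Without F1 5% D90 these were 0.10 and -0.09.

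In the F1 5% D90 array a minority of the respiratory chain genes lay far from the other arrays, with a median deviation of -0.03 over all 83. In it 18 of 83 genes (21.7%) lay over 0.3 below the mean of the other 7 arrays, against 10.5% of all genes, and 8 (9.64%) lay over 0.3 above it, against 14%. It was the lowest array for 30 of 83 genes (36.1%, against 20.7% of all genes) and for 8 of the 16 genes of complex V. The lowest were Atp5pb (-1.88), Cox7a2l (-1.33), Ndufc2 (-0.94), Atp5l (-0.94), Ndufs4 (-0.76) and Atp5o (-0.63). The highest were Cox6a2 (1.37), Cox8b (0.86), Uqcrc1 (0.50), Ndufb10 (0.48) and Atp5a1 (0.44). Genes of 1 complex thus went apart, with Atp5pb and Atp5a1 of ATP synthase at opposite ends. The spread of these deviations (SD across genes, around the mean of 8 arrays) was 0.37 for the 83 genes, against 0.27 for all genes. Leaving this array out turned the sign of the diet difference in 22 of 83 genes, of the age difference in 18 and of the generation difference in 23. A further 16, 30 and 28 genes kept their sign with a difference smaller by over 1.5 times. The same counts are not given here for all genes. Many of the differences were small to begin with, with median absolute values of 0.06, 0.07 and 0.06 over the 83 genes.

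**Figure D4:**
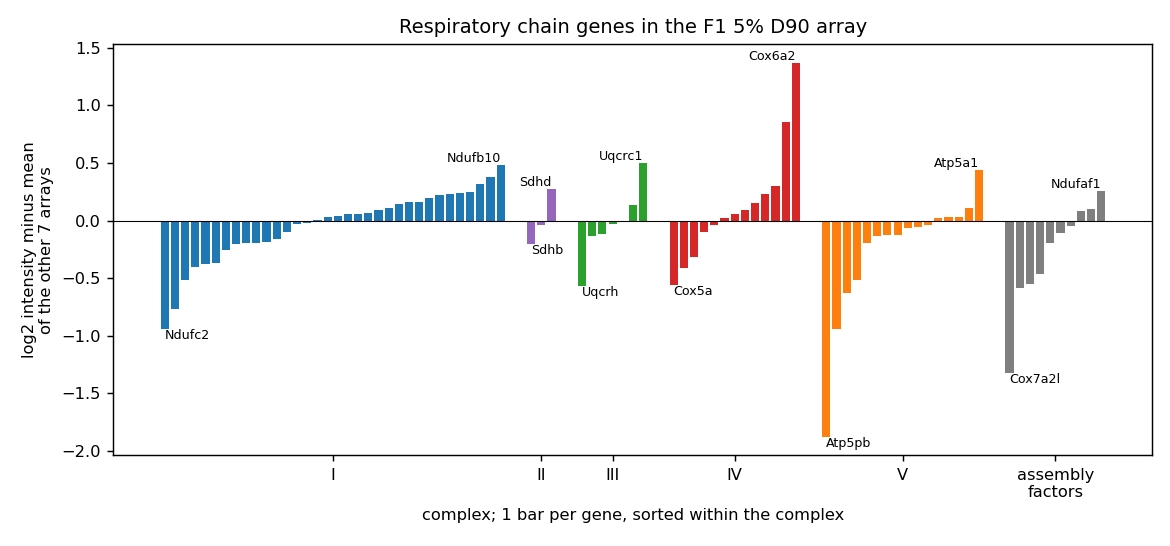
Log2 intensity in the F1 5% D90 array minus the mean of the other 7 arrays, 1 bar for each of the 83 genes, sorted within its complex, with the lowest and highest gene of each complex named. Bars run from -1.88 (Atp5pb) to 1.37 (Cox6a2), and complexes I, III, IV and V each hold genes over 0.3 above and over 0.3 below the other arrays.

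Probes of the same gene disagreed in that array. Of the 13 genes with more than 1 probe above the filter, 4 had probes on both sides of the other arrays' mean. Ndufs4, an accessory subunit of complex I, had 4 probes, which lay at -0.76, -0.12, -0.45 and 0.16 from the brightest to the dimmest. Ndufa8 had 1 probe at 0.20 and 1 at -0.39. Atp5j, coupling factor 6 of ATP synthase, had probes at -0.20 and -0.92. The sign of the age difference changed between probes for 5 of the 13 genes and that of the generation difference for 6, Ndufs4 among both. For diet it changed in 4 of the 13 (Ndufa5, Ndufaf5, Ndufb6 and Uqcr10). Whether such probes read different transcripts of a gene was not tested.

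**Figure D5:**
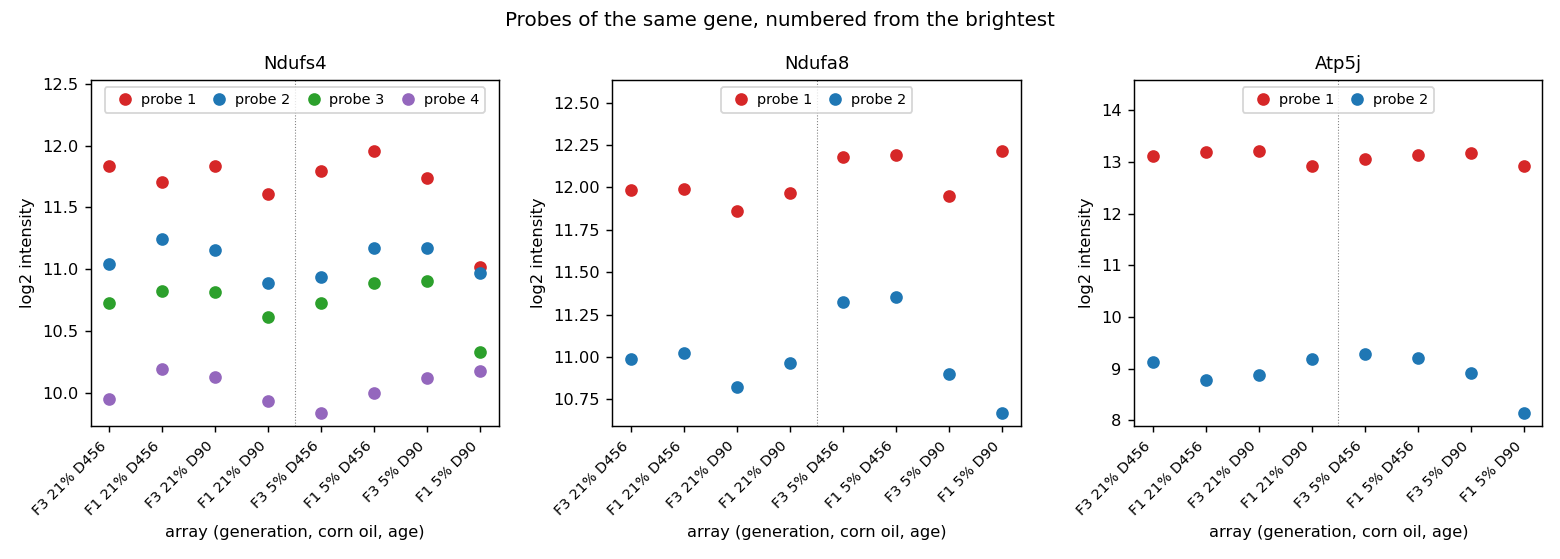
Log2 intensity of each probe above the filter of Ndufs4 (4 probes), Ndufa8 (2) and Atp5j (2) on the 8 arrays (21% corn oil left of the dotted line, 5% right), numbered from the brightest probe. In the F1 5% D90 array the probes part: the brightest Ndufs4 probe is at 11.02 there and at 11.61 or above elsewhere, and the dimmest is at 10.18, within its range elsewhere.

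A different 5% array was high for these genes. F1 5% D456 was the highest array for 24 of 83 genes (28.9%), against 10.1% of all genes, and the median deviation of the 83 genes from their own means was 0.08 there, against -0.02 for all genes. In its pair, 21% minus 5% was below 0 for 61 of 83 genes (73.5%), against 40.8% of all genes. Against F3 of the same diet and age, F3 was lower for 63 of 83 genes (75.9%), against 48.2% of all genes. Pancreas markers stood at 9.36 in that array and at 10.17 in the F3 array, and their part was not tested.

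Without the F1 5% D90 array, the diet difference was below 0 for 59 of 83 genes, against 41.2% of all genes. At an unadjusted p under 0.05, 4 of 83 genes were then counted for diet and all 4 were lower with 21%, against 9.13% of all genes in either direction and 3.98% lower. These were Cox8a (-0.25), Atp5g2 (-0.32), which encodes a subunit of the rotor ring, Cox6a1 (-0.29) and Atp5h (-0.20). Their adjusted p-values were between 0.430 and 0.494 (limma), while 31 genes of the whole array were called. With that array in the fit none of the 4 had a p under 0.05. In the same fit the 3 other 5% arrays, all with pancreas RNA, made up the 5% side. With all 8 arrays and the pancreas covariate, Cox8a was 0.07 and Atp5g2 0.44 for diet. Atp5h was below 0 under all 20 alternatives (-0.20 to -0.08).

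Differences that themselves differ between levels were tested with an interaction term. For diet by age 0 of 83 genes were called (0% of all genes), and 10 of 83 had an unadjusted p under 0.05, against 11.8% of all genes (1 to 25 of 83 with each array left out). The smallest p-values were those of Cox7a2l (-0.64 ± 0.19), Ndufc2 (-0.45 ± 0.15) and Ndufaf7 (-0.29 ± 0.09), an arginine methyltransferase of complex I assembly, each with an adjusted p of 0.403 (limma). All 3 were lowest in F1 5% D90. When the F3 5% D90 array was left out, so that F1 5% D90 was the only D90 array with 5%, Atp5pb, Cox7a2l and Ndufc2 passed (adjusted p = 0.018, 0.029 and 0.029, limma), and 234 genes were called in all. For diet by generation 0 of 83 were called (0% of all genes) and 1 had a p under 0.05 (1.17%), Cox7a1 (0.26 ± 0.10, adjusted p = 1.0, limma), followed by Ndufaf1 (0.25 ± 0.14) and Ndufa3 (0.18 ± 0.10). For age by generation 0 of 83 were called (0% of all genes) and 2 had a p under 0.05 (2.91%), Uqcrb and Atp5j (-0.18 ± 0.06, adjusted p = 0.996, limma), followed by Sdhd (-0.26 ± 0.11).

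Genes around the respiratory chain were counted in the same fit, and none was called for diet, age or generation. Of 70 mitochondrial ribosomal protein genes (a list taken by symbol after the data were seen), whose products translate the subunits encoded in mitochondrial DNA, 56 were higher with 21% and 14 lower, with a median of 0.05, against 0.00 for all genes. The number higher was 55 after quantile normalization, 57 after 75th percentile scaling, 44 with the pancreas covariate, 43 without F1 5% D90 and 45 without F1 21% D90, where the median was 0.03. Mrpl53 (0.30) and Mrps12 (0.23) had the largest differences. The diet median of complex IV had the opposite sign. Of 16 genes that feed or carry electrons, 9 were higher and 7 lower, with a median of 0.02, and Etfdh, which passes electrons from fatty acid oxidation to coenzyme Q, differed by 0.31 ± 0.17. Of 28 other assembly factors, 16 were higher and 12 lower, with Foxred1 at 0.18 and Cox15 at 0.16. Of 16 TCA cycle genes, 9 were higher and 7 lower with 21%, 7 higher and 9 lower at D456 and 4 higher and 12 lower in F3, with medians of 0.01, -0.04 and -0.04. Citrate synthase (Cs) had -0.18 for diet. Of 17 regulators of mitochondrial biogenesis, such as Ppargc1b (-0.17 for diet) and Tfam (0.12), 9 were higher and 8 lower with 21%, 6 higher and 11 lower at D456 and 5 higher and 12 lower in F3.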

How the data were processed

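The authors' files hold 1 intensity per probe and array on a linear scale. Their normalization, not given in the sources used here, left array means nearly equal (sorted values at most 7.50% apart) and a lowest value of 101.4, so background was not subtracted. The deposited intensity was log2 transformed. Of 25697 probes, 23978 had 1 symbol, 0 several and 1719 none; the 12848 probes with a mean log2 above 6.95 were kept. An additive model of diet, age and generation (4 residual degrees of freedom, moderated with an intensity trend) was fitted to 8945 genes with limma 3.58.1 (R 4.3.3, statmod 1.5.0), two-sided, with Benjamini-Hochberg adjustment over all genes. Interactions were added singly (3 residual degrees of freedom).

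The members, the lists and the tests were chosen with earlier results of these data known. The text names the members with the largest differences of each complex and factor, those with an unadjusted p under 0.05 and the same sign in 4 pairs, the defining subunits, the tissue-restricted isoforms and the 3 smallest interaction p-values. Other genes were picked after their values were seen. The NRF1 motif was shortened to CGCNTGCG after motif shares of a longer form had been seen. All 89 symbols matched a RefSeq gene table (GRCm38.p6). In simulations of 8945 genes, differences of 1 (log2) were recovered in 95.0%, 95.4% and 95.6% of cases for diet, age and generation. Differences of 0.5 were recovered in 65.4%, 67.0% and 64.8%. The simulated arrays had independent noise, without an outlying array or RNA of other tissues, so these rates may not hold for the real arrays. In the real fit, 25 pancreas markers had a median diet difference of -1.73, and 0 of them were called. Alternatives were other scalings, background subtraction, a floor, other filters, averaged probes, other variance models, array weights, a pancreas covariate and leaving out each array. The number of arrays limits the precision, with a median SE of 0.084 for diet. Figures were drawn with matplotlib 3.10.9.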

Additional observations from a re-analysis of the deposited data

Results flagged for a closer look

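Among 30 groups of 4 arrays tested for a value far from the rest (5 complexes, by the levels of diet, age and generation), chance alone would give about 1 in 20. The median deviation of the 3 complex II genes from their own means was 0.0727 in F1 5% D456, against -0.03 in F3 21% D456, -0.03 in F1 21% D456 and -0.05 in F3 5% D456, the other D456 arrays. The gap took up 0.868 of the range.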

How the results depend on the processing

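No member was called for diet, age or generation under any of the 20 alternatives. Sizes and signs of single members did move, and the cause was not tested.

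Under quantile normalization Cox4i1 for generation was 0.0053. Under 75th percentile scaling Cox5a for diet was 0.0018 and Atp5b for age 0.0028. With probes averaged, Sdhb for generation was -0.0068. Background subtraction gave complex III a diet median of -0.078, and the stricter filter gave complex IV a generation median of 0.014. The genes called for age over the whole array, 9 as reported, were 15 with background subtraction, 1 with the floor, 25 with no filter, 2 with the stricter filter, 0 with no intensity trend, 24 with robust variances, 234 with array weights and 34 with the pancreas covariate. Array weights, whose estimation did not fully converge, called 43 genes for diet. They gave Atp5pb -0.14 for diet, Sdhb -0.014, Cox6a2 0.34 and Cox8b 0.24 for age, and Sdhb -0.038, Cox6a2 0.16 and Cox8b 0.071 for generation.

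With the pancreas covariate, complex II medians were 0.065 for diet, -0.051 for age and -0.072 for generation. For diet it gave Uqcrc2 -0.030, Cox8a 0.070, Atp5g2 0.44, Ndufv1 0.068, Sdhb 0.20 and Cox5a 0.50. For age it gave Ndufc2 -0.18, Ndufa12 -0.046, Sdhb -0.11, Cox5a -0.12, Cox6a1 -0.18, Cox7c -0.0041, Atp5pb -0.16, Atp5g2 -0.13, Cox6a2 0.22 and Cox8b 0.091. For generation it gave Ndufc2 -0.022, Sdhb -0.072, Cox5a -0.053 and Cox6a2 0.078.

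Leaving out each array in turn, these had both signs (lowest to highest value): for diet, Atp5a1 -0.31 to 0.058, Atp5l -0.0036 to 0.37, Atp5pb -0.32 to 0.49, Cox5a -0.18 to 0.094, Ndufs4 -0.060 to 0.27, Ndufv1 -0.049 to 0.0088, Sdhb -0.12 to 0.016, Sdhd -0.22 to 0.057 and Uqcrb -0.38 to 0.038. For age, Atp5b -0.017 to 0.014, Cox5a -0.0050 to 0.30, Cox6a1 -0.023 to 0.30, Cox6a2 -0.42 to 0.29, Cox8b -0.32 to 0.18, Sdhb -0.066 to 0.099 and Uqcrfs1 -0.0038 to 0.021. For generation, Cox4i1 -0.050 to 0.0012, Cox5a -0.062 to 0.24, Cox6a2 -0.44 to 0.28, Cox7a1 -0.078 to 0.11, Cox8b -0.32 to 0.16, Ndufc2 -0.017 to 0.45, Ndufv1 -0.049 to 0.010, Sdhb -0.084 to 0.082 and Uqcrfs1 -0.0076 to 0.018. Complex II medians ran from -0.075 to 0.057 for diet, -0.066 to 0.056 for age and -0.084 to 0.020 for generation. Other medians with both signs were those of complex I (-0.041 to 0.020) and V (-0.044 to 0.031) for diet, IV for age (-0.0045 to 0.059), and I (-0.040 to 0.0026), III (-0.0055 to 0.055), IV (-0.040 to 0.021) and V (-0.020 to 0.053) for generation. Genes called ran from 0 to 31 for diet and 0 to 23 for age, each highest without F1 5% D90. Interaction calls ran from 0 to 234 for diet by age (members 0 to 3), 0 to 11 for diet by generation and 0 to 13 for age by generation. Members at an unadjusted p under 0.05 ran from 0 to 4 for diet, 0 to 18 for age and 0 to 11 for generation, and from 1 to 25, 0 to 14 and 1 to 20 for these interactions in that order. They were 7 for diet and 13 for age with array weights, and 6 for diet and 3 for generation with no intensity trend. The shares of all genes under most of these settings are not given here. The counts therefore cannot be read as particular to the members. A fit with the interaction of the other 2 factors, which makes each matched pair of arrays a block, called 0, 8 and 0 genes for diet, age and generation, with 0 members each. The labels carry no replicate number to pair arrays by.

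Signal over background limits what Ndufab1, Ndufb11, Uqcrfs1, Atp5k and Ndufaf3 can show, and the 6 genes under the filter were not tested. The 5% arrays with pancreas RNA, the muscle RNA in 2 arrays and the array that stands apart are unevenly spread over the diets, so diet and these cannot be told apart. Pancreas markers were also higher at D456 and in F3, and their part in the age and generation differences was not tested.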
